A study of Mus musculus with 20 samples.

Results

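The forkhead transcription factors described here are 9 genes, Foxo1, Foxo3, Foxo6, Foxk1, Foxk2, Foxp1, Foxj2, Foxj3 and Foxn3. They were listed by name, with earlier results of these data known, and they stand among 44 Fox genes that were looked up in the data and 23781 gene symbols in the mRNA-seq. All 9 had counts in the mRNA-seq. In the RIP-seq, 7 of the 9 had a 3′UTR with at least 10 counts in every library, and Foxn3 and Foxo6 did not.

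Forkhead proteins bind DNA through a shared winged-helix domain. The FOXO proteins (Foxo1, Foxo3 and Foxo6) act downstream of insulin and growth factor signalling: AKT phosphorylates them, 14-3-3 proteins then hold them in the cytoplasm, and in the nucleus they switch on genes of stress resistance, autophagy, metabolism and cell death. Foxk1 and Foxk2 are repressors of autophagy and metabolic genes, Foxp1 is a repressor with roles in neuronal identity, Foxn3 is a repressor with roles in cell cycle checkpoints, and Foxj2 and Foxj3 are activators of the FOXJ class. Argonaute 2 (AGO2) is the protein in which a miRNA, paired through its seed to a 3′UTR, holds a target mRNA.

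All animals were adult male C57BL/6 mice, and the vectors were AAV5 with a synapsin promoter, which drives expression in neurons and thus does not report on the other cells of the tissue. For RIP-seq, GFP-AGO2 was expressed as 1 transcript with a sponge, a decoy RNA with repeated bulged miRNA sites, and RNA was precipitated from hippocampal lysate with a GFP antibody. The 4 groups of 2 libraries were GFP-AGO2.miR292sp (a sponge for a miRNA that the study describes as absent from brain, and so the control), GFP-AGO2.miR124sp, GFP-AGO2.miR125sp, and sham-injected mice without GFP-AGO2, and each library pooled 2 hippocampi. For mRNA-seq, whole hippocampal tissue of 12 single mice was used, in an experiment of 3 GFP.miR124sp and 3 GFP mice and a separate one of 3 GFP.miR125sp and 3 GFP mice. The share of transduced neurons in that tissue was not measured here.

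Libraries held 2417942 to 5072501 counts in the RIP-seq and 6950522 to 27833176 in the mRNA-seq, and levels are given as CPM, counts scaled to a library total of 1000000. The samples are labelled hippocampal neurons, and 17 of 20 neuron markers had counts in the RIP-seq and 19 of 20 in the mRNA-seq (Syt1, Map2 and Gria1 had none in the former, Dlg4 none in the latter). All 14 astrocyte markers had counts in the mRNA-seq, so the tissue held glia. Of all RIP counts, the 13 of 14 astrocyte markers with counts together held 6.35 to 6.39% in sham, 1.55 to 1.64% in miR292sp, 4.46 to 4.47% in miR124sp and 3.54 to 3.78% in miR125sp, so that both sponge groups lay between the control sponge and sham. In bulk samples, fewer cells of a type and less RNA per cell cannot be told apart.

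The sponge for miR-125 is directed at a family with a single seed, the bases 2 to 8 through which a miRNA chooses its targets. The mature sequences of this family, with those of miR-132 and miR-9, which are abundant in neurons, are shown 5′ to 3′ from RefSeq (GRCm38.p6) with the seed in capitals.
miR-125a-5p: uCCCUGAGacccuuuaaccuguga
miR-125b-5p: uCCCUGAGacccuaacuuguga
miR-132-3p: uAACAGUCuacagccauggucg
miR-9-5p: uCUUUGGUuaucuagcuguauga
The sequence of miR-124 was not used here, so no search was made for its seed.

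The heptamer that pairs with the miR-125 seed, CTCAGGG, was searched on the transcribed strand of the annotated 3′UTR of each member and found once each in Foxo3, Foxk1 and Foxp1. In the RIP no member passed the test for the miR-125 sponge against the control sponge, as described below. The 3 places shown are all that were found. They are given in transcript direction from NCBIM37 (mm9), with the heptamer in capitals and 10 bases on either side.
Foxo3, chr10:41904006-41904012, minus strand: ggtggaatgtCTCAGGGtggcagctga
Foxk1, chr5:142935706-142935712, plus strand: ttctcatgaaCTCAGGGtgggtcttgc
Foxp1, chr6:98876031-98876037, minus strand: ttacagccatCTCAGGGtgaacagcct
In Foxo3 and Foxp1 the match extended to 8 bases, and in Foxk1 it did not. The added base is the t before the heptamer, which pairs with the miRNA base that follows the seed. None of the 3 heptamers was followed by an A, the other form of 8-base match. Long 3′UTRs hold a given heptamer often. Among the 500 tested 3′UTRs nearest in length, CTCAGGG occurred in 31.0% for Foxo3, 36.0% for Foxk1 and 33.2% for Foxp1, and it occurred in 16.3% of all 8145 tested 3′UTRs with a sequence. A match describes letters in the 3′UTR and is not a measured site.

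Over 8 distinct seeds, 24 matches lay in the members, and Foxo3 with 8 and Foxp1 with 7 held most of them. Their 3′UTRs are long, and each heptamer occurred in 21.2 to 45.4% of 3′UTRs of like length. The miR-132 heptamer GACTGTT occurred at 2 places in Foxo3 and at 2 in Foxp1, against 33.4% and 35.2% of 3′UTRs of like length with at least 1. For Foxn3, with a single match, the share was 10.4%. The first one in Foxo3 and the only miR-132 match in Foxn3 read as follows, the heptamer again in capitals.
Foxo3, chr10:41905969-41905975, minus strand: acccagcagaGACTGTTagcagccctg
Foxn3, chr12:100433781-100433787, minus strand: ctgaataccaGACTGTTcaggtgtatt
Foxj2, Foxj3 and Foxo6 held none of the heptamers searched, each of which occurred in 3.6 to 24.4% of 3′UTRs of like length. Foxo1 held 2, for miR-96 and miR-27, and both lay outside the block whose length the RIP-seq table lists. The first miR-132 match of Foxo3 lay in bases that it shares with a shorter annotated 3′UTR of the gene.

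What a RIP count of a member covers depended on how 3′UTRs had been counted. Of 5423 3′UTRs made of several exon blocks, 5401 had the length of the block with the lowest coordinate alone. For Foxo1 (ENSMUST00000053764) that block is chr3:52150299-52150312, which is 14 of the 3128 bases of its 3′UTR, or 0.448%. If the listed length is what was counted, its RIP counts, 258 over all libraries, come from reads that touch those 14 bases beside the stop codon.

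A second feature was shared bases. Of 10746 3′UTRs that lay wholly inside another one on either strand, 10745 had no count in any library, against 3747 of 17098 that overlapped no other. Bases covered by 2 annotated 3′UTRs thus gave next to no counts to the inner one, and whether reads there went to the longer one or were dropped is not known here. The bases not shared made up 87.9% of the 3′UTR of Foxo3 (ENSMUST00000105502), 80.3% of Foxk1, 41.4% of Foxk2 and 98.7% of Foxp1, 251 of 838 bases of Foxo6, and the whole 3′UTR of Foxj2 and Foxj3. In Foxn3 the 2 annotated 3′UTRs overlap along nearly their whole length, and they held 0 to 3 counts a library. Comparisons of a gene between libraries are made over the same bases in each library, and RIP levels are not compared between genes here.

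**Figure D1:**
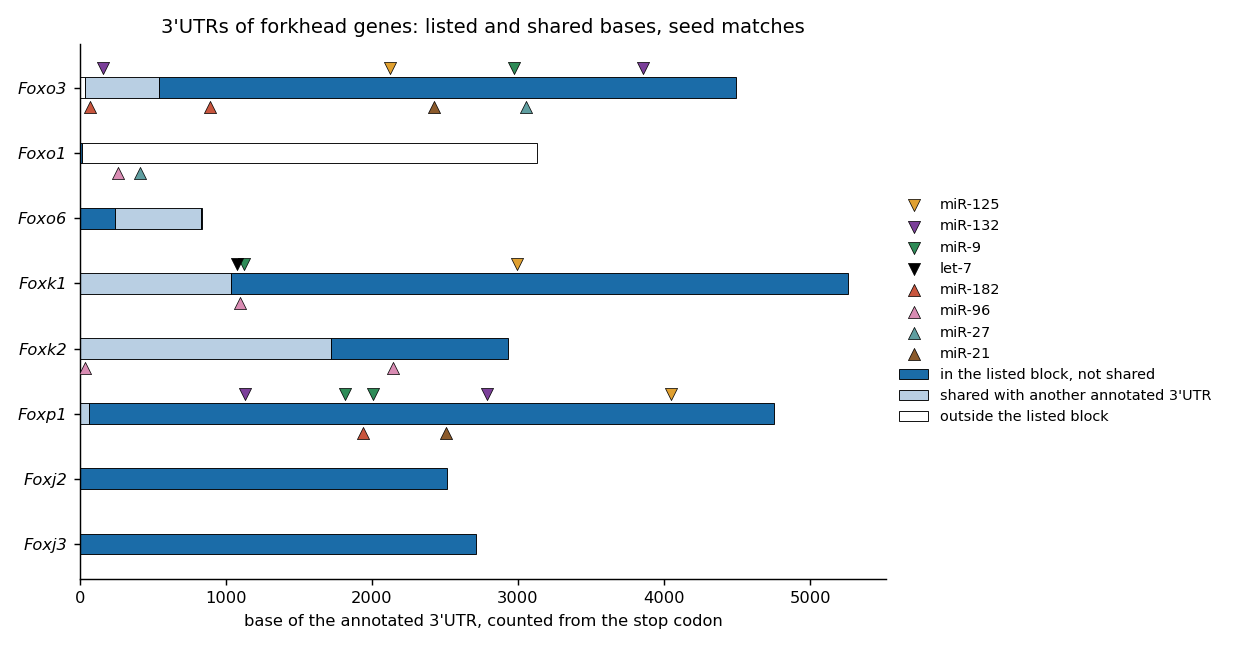
Annotated 3′UTRs of 8 forkhead genes drawn to scale in bases from the stop codon; dark bars are bases of the block listed in the RIP-seq table that no other annotated 3′UTR covers, light bars bases shared with another one, open bars bases outside the listed block, and triangles seed matches. Nearly the whole Foxo1 bar is open, since 14 of 3128 bases are in the listed block, while the miR-125 matches of Foxo3, Foxk1 and Foxp1 lie in dark bars.

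To ask how far forkhead mRNAs were bound to AGO2 in neurons, the RIP with the control sponge was compared with sham. Foxo3 stood out among the members. It had 2970 and 2594 counts in the miR292sp libraries against 120 and 168 in sham. The relative enrichment in AGO2 binding, which is the count per mean count of 101 reference genes around Gapdh divided by the sham mean, was 29.8 and 24.7 for Foxo3, with a mean of 27.2. This was above 99.6% of the 8203 3′UTRs tested, whose median was 2.39. The 2 sham libraries were at 0.722 and 1.28 on the same scale, and the groups did not overlap. On the log2 scale Foxo3 was 4.78 ± 0.26 (SE) higher than sham (edgeR quasi-likelihood test, Benjamini-Hochberg adjusted p = 1.32e-10).

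The other FOXO genes had few counts. Foxo1, a mediator of insulin action, had 68 and 55 counts with miR292sp and 17 and 16 in sham, an enrichment of 5.38 and a log2 difference of 2.42 ± 0.52 (adjusted p = 0.000588). Foxo6, the FOXO gene most confined to brain and studied for its role in memory, had 56 and 63 counts against 3 and 26 and fell below the count limit because of sham replicate 7. With a more lenient filter (filterByExpr) its log2 difference was 2.45 ± 0.78 (adjusted p = 0.018).

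Foxk1 had 1560 and 1280 counts with miR292sp against 446 and 385 in sham, an enrichment of 4.96. Foxk2 had 417 and 339 against 102 and 106, an enrichment of 5.21. Both genes rose in both miR292sp libraries, by 2.31 ± 0.22 for Foxk1 (adjusted p = 9.56e-08) and 2.38 ± 0.33 for Foxk2 (adjusted p = 6.88e-06) on the log2 scale. Of these 3′UTRs that of Foxk2 has more shared bases.

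Foxj2 had 443 and 372 counts against 156 and 135 in sham, and Foxj3 had 202 and 171 against 52 and 56. Their enrichments were 4.06 and 4.94, and both were higher than sham (log2 difference 2.02 ± 0.31 and 2.31 ± 0.49, adjusted p = 1.77e-05 and 0.000561). Foxp1 was the least enriched member, at 1.94, which was above 39.9% of all 3′UTRs tested. It had 845 and 720 counts with miR292sp and 757 and 440 in sham. Scaled to the reference genes it was higher than sham by 0.95 ± 0.26 (adjusted p = 0.00376), but it was below the median of 1.26 over all 3′UTRs, the direction turned with TMM (log2 -0.43) and DESeq2 size factors (-0.40), and without sham replicate 8 the difference was 0.28 (adjusted p = 0.464) and without miR292sp replicate 5 it was 0.70 (adjusted p = 0.0904).

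In all, 7 of 7 tested members were called higher with miR292sp and none lower, against 59.4% and 0.585% of all 8203 3′UTRs, and in all 7 both scaled miR292sp values lay above both sham values, as in 76.1% of 3′UTRs. The median log2 difference of the members was 2.31 against 1.26 for all. Above the 4-fold limit that the study used for AGO2 targets stood 6 of 7, all but Foxp1, against 27.2% of all 3′UTRs. With the other sponges 1 of 7 stood above it, Foxo3 at 7.17 with miR124sp and 10.4 with miR125sp, against 2.8% and 6.18%. With TMM, which takes most 3′UTRs as unchanged and puts the median of all at -0.11, 3 of 7 were called, Foxo3 (3.42), Foxk1 (0.94) and Foxk2 (1.02). With reference gene scaling, 13 of 16 tested neuron markers, 5 of 12 astrocyte markers and 2 of 14 oligodendrocyte and myelin markers were called higher than sham. Of the astrocyte markers 2 were called lower.

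**Figure D2:**
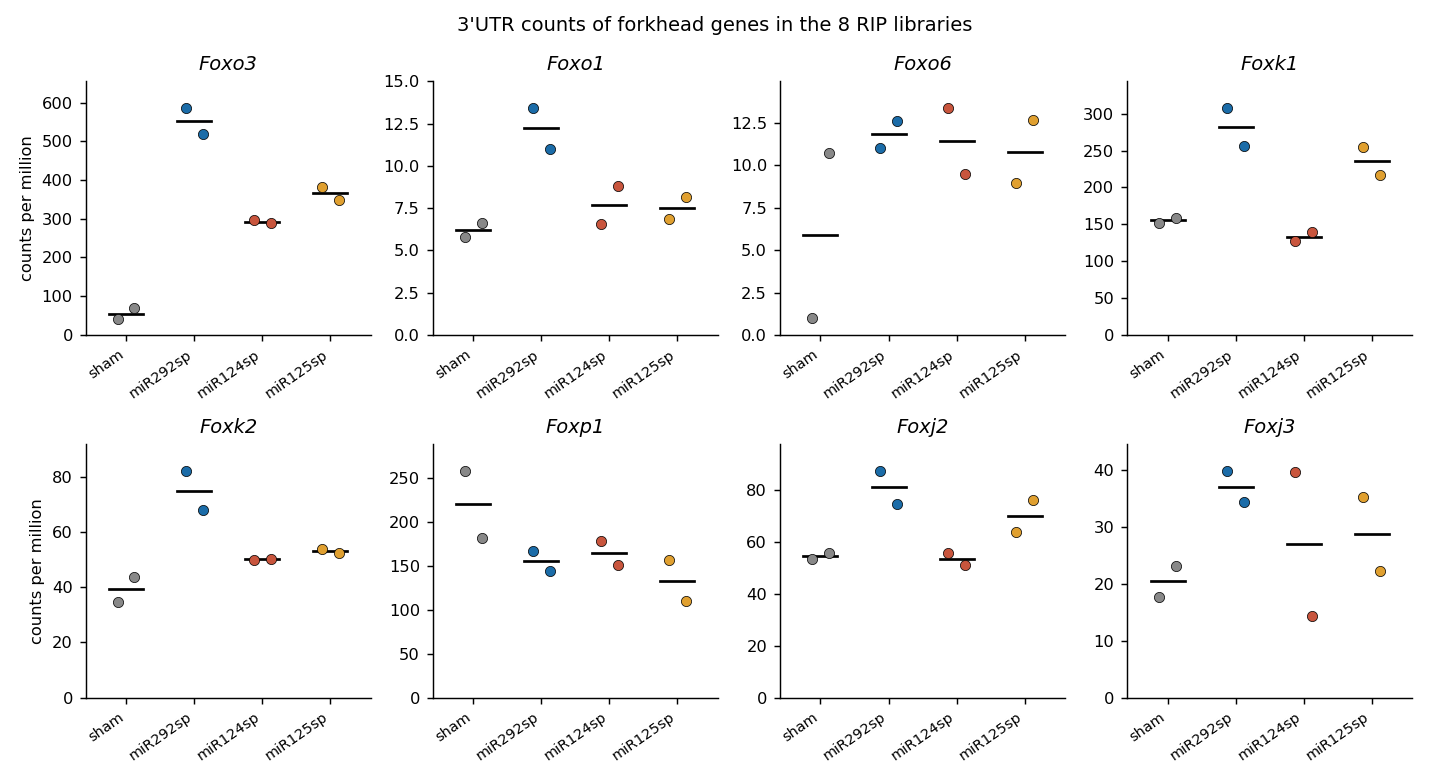
CPM of 8 forkhead genes in each RIP library of sham, miR292sp, miR124sp and miR125sp (points: libraries, 2 a group; lines: means; axes start at 0). Foxo3 is at 520 to 586 with miR292sp and 40.9 to 69.5 in sham, and Foxk1 with miR124sp is at 127 and 139, below both sham libraries in CPM but above both when scaled to the reference genes.

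To ask what the miR-124 sponge did to AGO2-bound forkhead RNA, GFP-AGO2.miR124sp was compared with GFP-AGO2.miR292sp. Foxk1 and Foxo3 were lower. Foxk1 was at 127 and 139 CPM with miR124sp against 308 and 257 with miR292sp. Its order against sham turned with the scaling, since in CPM both miR124sp libraries lay below the 152 and 159 of sham, while scaled to the reference genes they were at 1.10 and 1.23, above the 0.956 and 1.04 of sham. Foxo3 was at 296 and 288 CPM against 586 and 520, and remained above sham, which had 40.9 and 69.5. Neither gene's groups overlapped. By rank of relative enrichment, the measure of the study, Foxo3 was above 99.6% of 3′UTRs with miR292sp and above 99.5% with miR124sp. Foxk1 was above 80.1% with miR292sp and above 40.1% with miR124sp. The log2 differences were -1.08 ± 0.21 for Foxk1 (edgeR, TMM, adjusted p = 0.00675) and -0.91 ± 0.22 for Foxo3 (adjusted p = 0.0176).

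These were 2 of 7 members called lower and 0 called higher, against 3.46% of all 3′UTRs called lower and 5.1% called higher. The members' median was -0.59 and that of all 0.04. Foxo1 (log2 -0.67 ± 0.47), Foxk2 (-0.57 ± 0.31), Foxj2 (-0.59 ± 0.29) and Foxj3 (-0.42 ± 0.47) did not pass the test, and neither did Foxp1 (0.10 ± 0.26). Both miR124sp libraries lay below both miR292sp libraries in 5 of 7 members, all but Foxp1 and Foxj3, against 28.9% of 3′UTRs. The 2 miR124sp libraries disagreed on Foxj3, with 145 and 42 counts. In CPM, Foxj2 with miR124sp, at 55.7 and 51.0, overlapped its sham levels of 53.2 and 55.8, and Foxp1, at 179 and 152, lay below its sham levels of 258 and 182. Scaled to the reference genes, Foxj2 (1.38 and 1.29) lay above sham (0.955 and 1.05) and Foxp1 (1.10 and 0.951) overlapped it (1.15 and 0.848).

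The calls rested on few libraries. Foxo3 was lost on leaving out any 1 of the 4 libraries (adjusted p 0.0527 to 0.173) and Foxk1 without miR292sp replicate 5 (log2 -0.93, adjusted p = 0.12). Scaled to the reference genes, whose share of counts was 0.697 to 0.745% with miR292sp and 1.43 to 1.45% with miR124sp, all 7 were called lower, with Foxk1 at -2.09, Foxo3 at -1.92 and Foxp1, whose sign turned, at -0.92, while the median of all 3′UTRs was then -0.97. The astrocyte marker share given above moved with these comparisons (5 of 12 tested astrocyte genes were higher with miR124sp, Slc1a2 by 1.53), and its part in the members' values was not tested.

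With the miR-125 sponge, compared with the same miR292sp libraries, no member passed the test. Foxo3 was at 383 and 350 CPM against 586 and 520, groups that did not overlap, with a log2 difference of -0.61 ± 0.21 (edgeR, unadjusted p = 0.0114, adjusted p = 0.166). Foxk1, at 255 and 216 against 308 and 257, was nearer to the control (-0.27 ± 0.21), and Foxp1 was at -0.23 ± 0.26. These are the 3 members with a miR-125 heptamer.

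The 4 members without one were at -0.71 ± 0.47 (Foxo1), -0.51 ± 0.31 (Foxk2), -0.38 ± 0.47 (Foxj3) and -0.22 ± 0.29 (Foxj2). The count was 0 of 7 against 1.41% of all 3′UTRs called in either direction. Both sponge libraries lay below both control libraries in 4 of 7, Foxo1, Foxo3, Foxk1 and Foxk2, against 27% of 3′UTRs. At an unadjusted p below 0.05 the count was 1, Foxo3, and DESeq2 also called 0. In a fit on only the 4 libraries compared, Foxo3 was called (-0.60, adjusted p = 0.0265), and with scaling to the reference genes 6 were called lower, all but Foxj3, where the median of all was -0.75.

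Since both sponge comparisons share the miR292sp libraries, the sponges were also compared directly. For Foxk1 the log2 difference of miR124sp from miR125sp was -0.81 ± 0.21 (edgeR, unadjusted p = 0.0014), which did not pass after adjustment over all 3′UTRs (adjusted p = 0.728). Its groups did not overlap, at 127 and 139 against 255 and 216 CPM. Foxo3 differed by -0.31 ± 0.21 (adjusted p = 0.932). No member was called by edgeR or DESeq2 and 1 had an unadjusted p below 0.05, in a comparison where 0.0122% of all 3′UTRs were called. Both miR124sp libraries lay below both miR125sp libraries for Foxo3, Foxk1, Foxk2 and Foxj2, against 18.6% of 3′UTRs, and above them for none, against 16.1%.

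**Figure D3:**
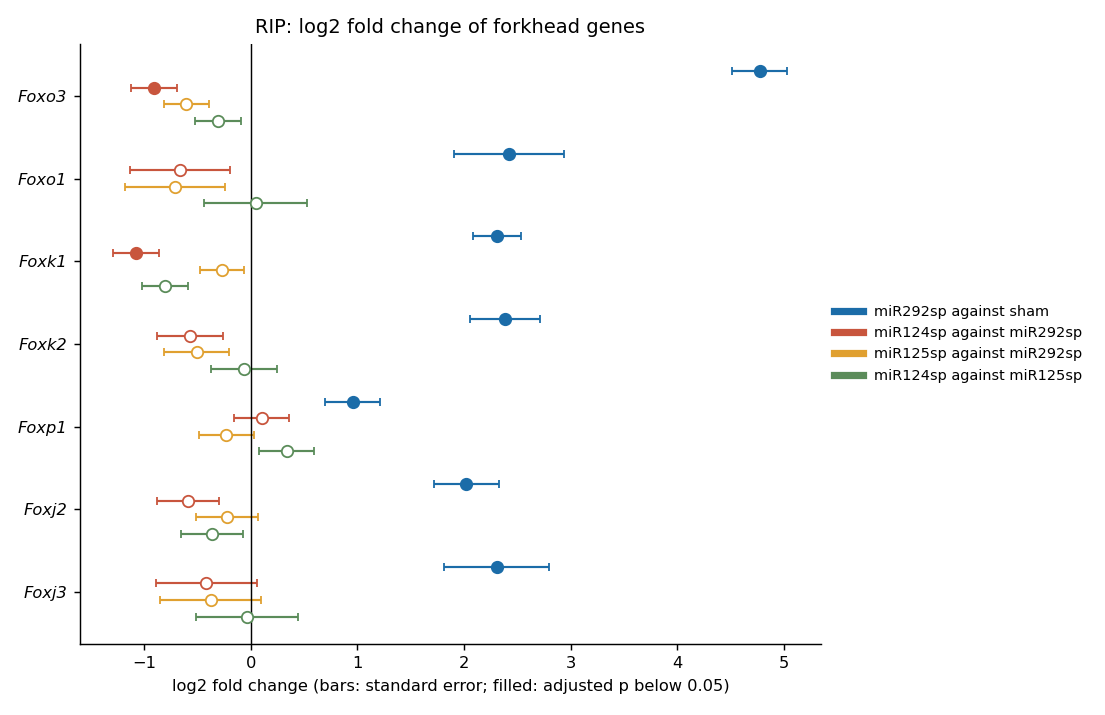
Log2 fold change with standard error of 7 forkhead genes in the 4 RIP comparisons (filled points: adjusted p below 0.05, edgeR; miR292sp against sham is scaled to reference genes, the others by TMM). Foxo3 is at 4.78 against sham, Foxk1 (-1.08) and Foxo3 (-0.91) are the filled points left of 0 for miR124sp against miR292sp, and the Foxp1 point against sham changes sign with TMM.

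The RIP profile of a member over the 8 libraries can be set beside those of other genes, as the root mean square difference of centred log2 CPM. The gene nearest to Foxo3 was Bdh1, a mitochondrial enzyme of ketone body metabolism, at 0.123, that nearest to Foxo1 was Stmn2, a neuronal microtubule regulator, at 0.102, and that nearest to Foxp1 was Fam32a, at 0.088. The next genes were nearly as close, at 0.135, 0.117 and 0.116 in the same order. Some gene is nearest to any profile, and a relation between these genes was not tested.

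Other Fox genes gave little to compare in the RIP. Of 32 with an annotated 3′UTR, 4 passed the count limit. Foxn2 (log2 1.53 ± 0.33) was higher in miR292sp than in sham (adjusted p = 0.000594). Foxc1 (-0.36 ± 0.64) and Foxj1 (-0.18 ± 0.65), known from meninges and vessels and from ciliated cells, did not pass. Neither sponge comparison called any of these 3.

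Genes around the FOXO proteins were counted against the 59.4% of all 3′UTRs that were called higher in miR292sp than in sham, a gene being counted where any of its 3′UTRs was called. Of kinases and regulators acting on FOXO, 28 of 35 tested genes rose in miR292sp over sham and none fell, among them the insulin receptor substrate Irs1 (log2 5.15) and the kinase Mapk8 (3.45). Of textbook FOXO target genes, 24 of 26 were higher, led by the mTORC1 inhibitor Ddit4 (5.68), the apoptosis gene Bbc3 (4.43), Tsc22d3 (4.36) and the repressor Bcl6 (3.92). Of corepressors and partners of FOXK, FOXP and FOXN3, 13 of 20 were higher, a share near that of all 3′UTRs, among them the corepressors Ski (3.68) and Ctbp1 (3.03). Counted by single 3′UTR, as the 59.4% is, 29 of 41, 24 of 26 and 14 of 25 were called higher in the 3 lists. The medians of the 3 lists were 1.67, 2.10 and 1.22 against 1.26 for all.

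With the miR-124 sponge, the AGO2-bound RNA of 3 of 26 FOXO target genes was lower than with miR292sp and none higher, namely Bcl6 (log2 -1.19 ± 0.25), Ddit4 (-1.13 ± 0.30) and the autophagy kinase Ulk1 (-0.83 ± 0.22). Ctbp1 was the only one of 20 corepressors and partners called (-1.03 ± 0.23). Of 35 regulators, 5 were higher, led by the acetyltransferase Ep300 (2.37 ± 0.57 in a single 3′UTR of the gene), and 1 was lower, the PI3-kinase subunit Pik3cb (-1.01 ± 0.25). Another 3′UTR of Ep300, which was at log2 3.41 in miR292sp over sham, was not called with this sponge. Of all 3′UTRs 3.46% were called lower and 5.1% higher, and leaving out a library took all calls from 702 to between 60 and 312. With the miR-125 sponge, Pik3cb (-1.07 ± 0.26) was the 1 gene of these lists that was called.

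In the mRNA-seq, levels can be compared between genes per kilobase of RefSeq transcript, though the transcripts are of different completeness. That of Foxo3 has 2889 bases, fewer than its annotated 3′UTR of 4490. Over the 6 GFP mice, Foxk2 was highest, at 37.7 ± 1.44 (SD, n = 6) CPM per kilobase, and did not overlap the next. Foxk1 (18.0 ± 2.31), Foxo6 (16.4 ± 2.00), Foxo1 (15.6 ± 1.85), Foxo3 (12.7 ± 1.18), Foxj2 (12.4 ± 1.37) and Foxn3 (11.1 ± 0.746) followed in this order, and the ranges of neighbours overlapped all along it. Foxj3 (0.312 ± 0.0544) and Foxp1 (0.309 ± 0.0495) have several RefSeq transcripts, and the treatment of reads shared between these is not known here, which leaves their low levels uncertain. Of the other Fox genes, Foxn2 (median 42.2 CPM over the 12 mice) and Foxo4, the remaining FOXO gene (33.0), were the most abundant.

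To ask which forkhead mRNAs changed in the tissue when miR-124 was sponged, 3 GFP.miR124sp mice were compared with 3 GFP mice. Foxo3, Foxn3 and Foxj2 were higher. Foxo3 was at 54.7, 42.6 and 49.7 CPM in GFP.miR124sp against 33.7, 31.6 and 37.1 in GFP. Foxn3 was at 34.4, 34.1 and 45.3 against 26.4, 28.6 and 28.6, and Foxj2 at 77.6, 64.1 and 78.7 against 55.0, 53.5 and 62.7. Every sponge mouse was above every GFP mouse in each of the 3 genes and in no other member, against 18.3% of genes tested.

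The log2 differences were 0.56 ± 0.11 for Foxo3 (edgeR quasi-likelihood test, adjusted p = 0.00835), 0.49 ± 0.11 for Foxn3 (adjusted p = 0.0154) and 0.40 ± 0.10 for Foxj2 (adjusted p = 0.0218). These were 3 of 9 members called higher, against 12.5% of 13111 genes, and 0 called lower, against 10.7%. Leaving out GFP replicate 15 lost all 3 calls (adjusted p 0.0525 for Foxo3, 0.0695 for Foxn3 and 0.113 for Foxj2), and leaving out GFP replicate 8 lost Foxn3 (0.0525) and Foxj2 (0.0675). Foxj2 was also lost without sponge replicate 2 (0.0955) or 14 (0.0915).

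The remaining members did not pass. Foxk1 (log2 0.15 ± 0.09), Foxk2 (0.00 ± 0.07), Foxo1 (0.05 ± 0.14), Foxo6 (-0.24 ± 0.14), Foxj3 (0.22 ± 0.23) and Foxp1 (0.02 ± 0.25) had overlapping groups. Foxo1 spread widely in GFP.miR124sp, with 80.0, 96.0 and 63.4 CPM against 88.5, 71.3 and 76.8 in GFP. Foxo3 was thus the 1 member called in both assays, lower in AGO2-bound RNA and higher in mRNA with the miR-124 sponge. Foxn3 and Foxo6 did not reach the count limit of the RIP and could not be called in both. The share of all genes called in both assays was not computed, so this count has no background. Foxk1, called in the RIP, was at 128, 136 and 126.5 against 122, 107 and 132 CPM of mRNA. The rank of Foxo3 in relative enrichment had hardly moved with that sponge, from above 99.6% to above 99.5% of 3′UTRs.

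Other values moved with this comparison. The headers of the 3 GFP mice and sponge replicate 14 carry a mark (Comb) that sponge replicates 2 and 9 lack. Between marked mice only, with 1 sponge mouse and so no test, the log2 ratio was 0.54 for Foxo3, 0.70 for Foxn3 and 0.46 for Foxj2, and unmarked mice were of 1 group only. With the mark as a covariate, chosen after seeing the data, Foxo3 (0.58, adjusted p = 0.0461) and Foxn3 (0.74, adjusted p = 0.0103) were called and Foxj2 (0.50, adjusted p = 0.0528) was not. Oligodendrocyte and myelin markers held 0.141 to 0.179% of counts in GFP.miR124sp against 0.105 to 0.115% in GFP (10 of 14 tested higher, Cnp by 0.86), and astrocyte markers 0.674 to 0.691% against 0.819 to 0.995% (7 of 13 lower). Microglia markers held 0.071 to 0.0759% against 0.0832 to 0.0924% (7 of 10 lower, Aif1 at a log2 difference of -0.57), and neuron markers 0.801 to 0.861% against 0.749 to 0.812%, groups that overlapped (6 of 18 higher and 2 lower). The part of these shifts in the values of Foxo3, Foxn3 and Foxj2 was not tested.

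**Figure D4:**
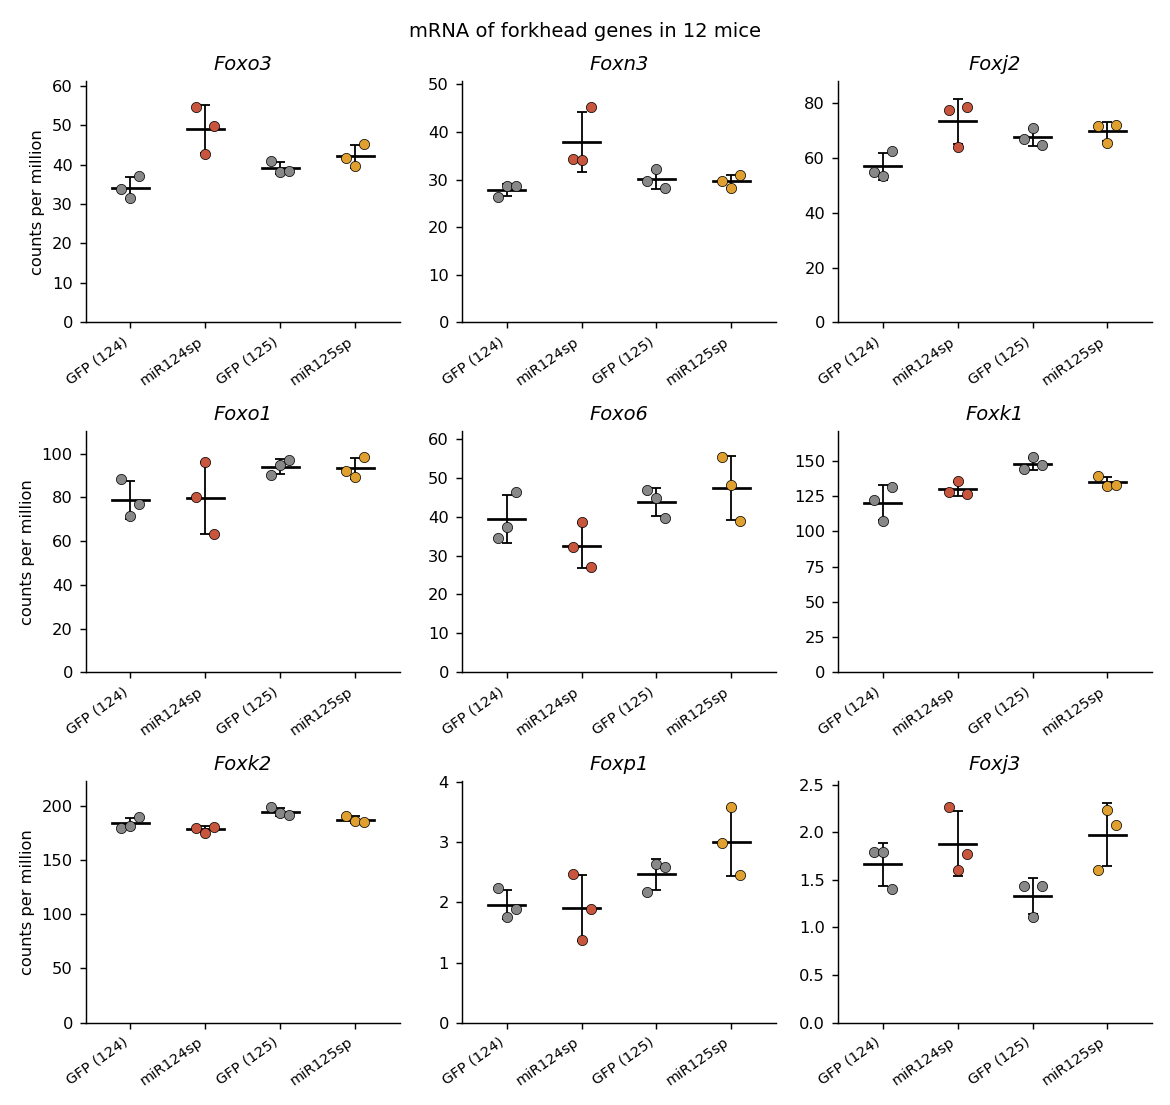
CPM of 9 forkhead genes in 12 mice of the miR-124 and miR-125 experiments (points: mice; lines and bars: mean and SD, n = 3; axes start at 0). In the panels of Foxo3, Foxn3 and Foxj2 the 3 GFP.miR124sp mice lie above the 3 GFP mice of the same experiment, and Foxk2 is at 175 to 199 in all mice.

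Among the pathway lists, to be read against the 12.5% of all genes called higher and 10.7% called lower, 14 of 38 kinases and regulators acting on FOXO were higher with the miR-124 sponge and 1 lower, with the AMPK subunit Prkaa2 (log2 0.56 ± 0.09), the PI3-kinase subunit Pik3ca (0.45 ± 0.12), Irs2 (0.42 ± 0.10) and Ep300 (0.39 ± 0.08) at the top. Of FOXO target genes, 6 of 34 were higher and 3 lower, and the highest were Trib1 (0.60 ± 0.11), Bcl6 (0.57 ± 0.13) and the atrophy ubiquitin ligase Fbxo32 (0.49 ± 0.08). Their median, 0.04, was near that of all genes, -0.01. Bcl6 had been lower in the RIP. Of 22 corepressors and partners 5 were higher and 2 lower. Among them Tbr1, known as a transcription factor of cortical projection neurons, rose by 1.18 ± 0.17, and its part in the members' values was not tested, and the corepressors Ctbp2 (-0.56 ± 0.16) and Sap30 (-0.47 ± 0.15) fell. None of 13 other Fox genes was called (edgeR), Foxn2 being at 0.14 ± 0.10 and Foxo4 at -0.04 ± 0.15.

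With the miR-125 sponge, forkhead mRNAs were close to those of the GFP mice. Foxo3 was at 41.6, 39.6 and 45.3 CPM against 40.9, 38.2 and 38.4, a log2 difference of 0.11 ± 0.07. Foxk1 was at 139, 133 and 133 against 144, 153 and 147, with every sponge mouse below every GFP mouse, by a log2 difference of -0.12 ± 0.04 (unadjusted p = 0.0183, adjusted p = 0.276). Foxj3, at 1.60, 2.24 and 2.08 against 1.43, 1.11 and 1.44, had an unadjusted p of 0.0387 (0.57 ± 0.24, adjusted p = 0.355), on 8 to 44 counts a mouse.

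Thus 0 of 9 members were called by edgeR, 2 had an unadjusted p below 0.05 and DESeq2 called 0, against 0.227% of 12771 genes called. Groups without overlap were seen for Foxj3 (higher, against 8.14% of genes) and for Foxk1 and Foxk2 (lower, against 11%). Foxp1 was at 0.35 ± 0.22, Foxo6 at 0.11 ± 0.11, and Foxo1, Foxk2, Foxj2 and Foxn3 were between -0.04 and 0.06. No gene of the 3 pathway lists and none of 14 other Fox genes was called in this comparison.

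Whether the effects of the sponges differed was tested as an interaction over all 12 mice. The difference of log2 effects was 0.44 ± 0.14 for Foxo3 (adjusted p = 0.0491) and 0.48 ± 0.14 for Foxn3 (adjusted p = 0.0377), both higher with the miR-124 sponge. That was 2 of 9 members called higher and 0 lower, against 7.38% and 7.06% of 13413 genes. Foxj2 (0.33 ± 0.13, adjusted p = 0.0927) and Foxk1 (0.25 ± 0.10, adjusted p = 0.115) did not pass. The controls of the experiments were not at 1 level. The GFP mice of the miR-125 experiment, at 38.2 to 40.9 CPM of Foxo3, lay above the 31.6 to 37.1 of the GFP mice of the miR-124 experiment.

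These calls rested on single mice. Foxo3 lost its call when any 1 of 9 of the 12 mice was left out, with an adjusted p of up to 0.13, and Foxn3 when any 1 of 7 of those 9 was, with up to 0.104. Both were called without GFP replicate 20 or sponge replicate 9 of the miR-124 experiment or sponge replicate 24 of the miR-125 experiment. Without GFP replicate 20 of the miR-124 experiment Foxk1 (0.35, adjusted p = 0.025) and Foxj2 (0.43, adjusted p = 0.0309) were called as well, and Foxj2 was also called without sponge replicate 9 of that experiment (0.44, adjusted p = 0.00905). With the Comb mark as a covariate Foxo3 was not called (adjusted p = 0.138), at a log2 difference of 0.50 against 0.44 without it. In the miR-125 experiment all sponge mice and GFP replicate 4 carried the mark, and GFP replicates 14 and 15 did not. Those were also the shallowest mRNA libraries, at 7190513 and 6950522 counts. The mark thus went in part with the group in both experiments, in opposite directions, and in the miR-125 experiment with depth. Of the FOXO regulators 9 of 38 were called higher and 1 lower in the interaction, and Bcl6 (0.59 ± 0.15), Trib1 (0.70 ± 0.17) and Fbxo32 (0.57 ± 0.13) were among 6 of 34 FOXO targets called higher, with 3 lower, against the 7.38% and 7.06% of all genes.

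**Figure D5:**
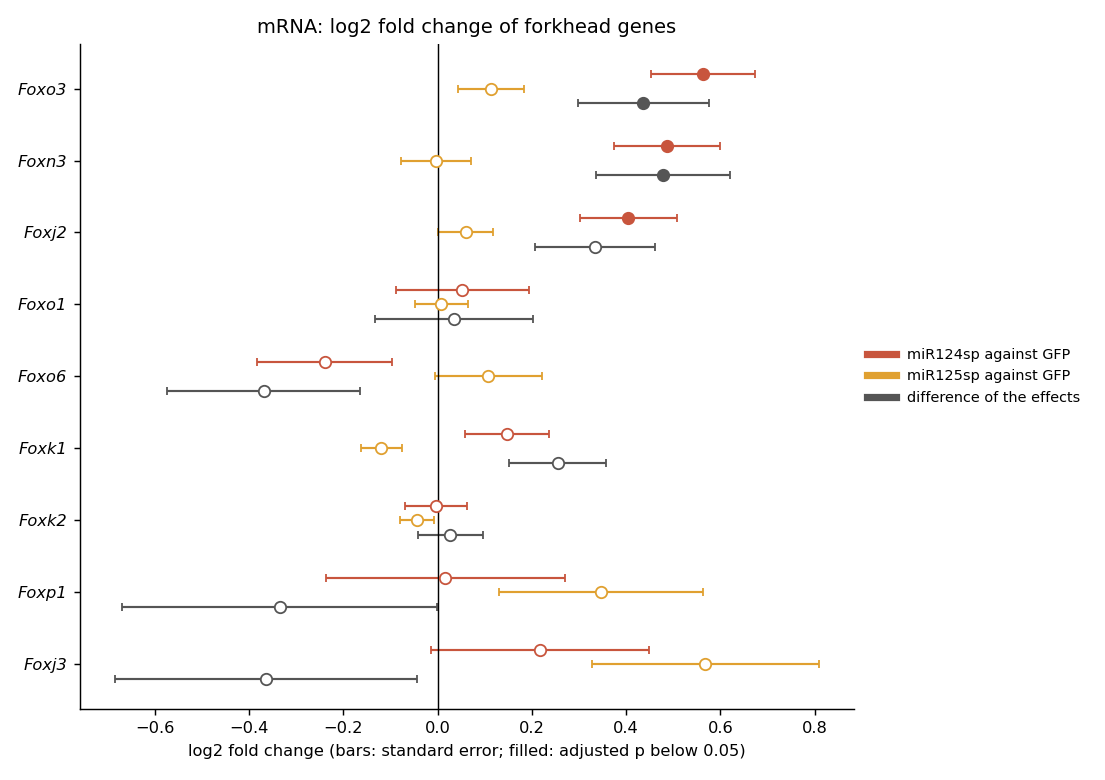
Log2 fold change with standard error of 9 forkhead mRNAs for miR124sp against GFP, miR125sp against GFP and the difference of both effects (filled points: adjusted p below 0.05, edgeR, 3 mice a group). Foxo3, Foxn3 and Foxj2 are filled for miR124sp, at 0.56, 0.49 and 0.40, Foxo3 and Foxn3 are filled for the difference, and no point is filled for miR125sp.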

How the data were processed

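RNA bound to GFP-AGO2 (8 libraries) and poly-A RNA (12 mice) of mouse hippocampus were analysed. The authors deposited raw counts per annotated 3′UTR for the RIP-seq and per RefSeq transcript for the mRNA-seq. Per the labels the submitters' processing used STAR, mm10 and edgeR, the study's methods name mm9, and no source used here names the counting program. RIP names, coordinates and sequences were taken from GENCODE M1 on NCBIM37, in which 98.0% of 38158 3′UTRs had a symbol and 82.7% had the annotated 3′UTR length. For the mRNA-seq, 98.7% of 32850 transcripts had a symbol and counts were summed per symbol.

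Differences were tested with edgeR 4.0.16 (quasi-likelihood, R 4.3.3) over all features, with Benjamini-Hochberg adjustment and a threshold of 0.05. The 8 RIP libraries shared 1 fit over 8203 3′UTRs that reached 10 counts in each library. Following the study's methods, miR292sp against sham was scaled to 101 reference genes, Gapdh and 50 on each side of it by raw ratio. Sponges were compared here with TMM, where the study compared ranks of enrichment. Each mRNA experiment was fitted on its 6 mice after filterByExpr with TMM. Errors of log2 differences are standard errors of these fits, and counting error grows in the shallower libraries. Scripts were tested on simulated data. Alternatives were other scalings, filters, DESeq2 1.42.0, unsummed or summed transcripts, other samples in the fit and leaving out each library. Heptamers pairing with miRNA bases 2 to 8 were searched in annotated 3′UTRs, and 9 of 13 miRNA names matched the RefSeq table. All 9 members were described in every comparison, and from each pathway list all genes were counted and at most 4 a comparison named, those called with the largest change, and a few genes that this rule names are not reported here. The members, lists and tests were chosen with earlier results of these data known.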

Additional observations from a re-analysis of the deposited data

Results flagged for a closer look

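For Foxo3 mRNA the effect of the miR-124 sponge exceeded that of the miR-125 sponge by 0.44 on the log2 scale (edgeR interaction over 12 mice, adjusted p = 0.0491), and for Foxn3 by 0.48 (adjusted p = 0.0377), and a difference between the experiments is what drew attention to both. A short second 3′UTR of Foxp1 (ENSMUST00000113321, 632 bases, chr6:98956679-98957310), which had too few counts to be tested, held 0 and 0 counts with miR292sp, while the miR124sp libraries held 13 and 12 (25 in all), the miR125sp libraries 4 and 11 (15 in all) and sham 19 and 14. It was 1 of 2 annotated 3′UTRs at 0 in both miR292sp libraries and at 4 or more in each of the other 6. Since no group held 4 or more samples, no single library could be tested for lying apart.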

How the results depend on the processing

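Of 677 member values recomputed under alternatives, 622 stayed on their side of the threshold, and 38 lost and 14 gained a call in the same direction. A further 3 turned sign with a call under 1 of the settings. Those 3 were Foxp1 against sham with TMM (-0.43) and DESeq2 size factors (-0.40) and Foxp1 in miR124sp against miR292sp with reference gene scaling (-0.92). Values called under neither setting could turn sign too and are among the 622. Foxj3 in miR124sp against miR292sp (-0.42), for example, was at 0.16 without miR124sp replicate 4. Members called against sham fell from 7 to 3 with TMM and 3 with DESeq2 size factors. For miR124sp against miR292sp, reference gene scaling called 4122 3′UTRs (7 members), filterByExpr 396, DESeq2 1163 and a fit on the 4 libraries 1123, against 702, and leaving out a library 60 to 312 with 0 to 1 members. For miR125sp against miR292sp they called 3150 (6 members), 35, 375 and 514 (1 member), and no filter 282, against 116, and leaving out a library 6 to 20. Between sponges, filterByExpr called 0 and no filter 13, against 1, and leaving out a library 0 to 1. For mRNA, leaving out a mouse called 980 to 4062 genes with 0 to 3 members for miR-124 (3046 and 3), 0 to 109 for miR-125 (29), and 1111 to 2990 with 0 to 4 members in the interaction (1937 and 2). The Comb mark as a covariate called 1439, 63 and 688 (1 member in the interaction). For miR-125, no filter called 206, DESeq2 141 and all 12 mice in 1 fit 11. The miR-125 heptamer extended to 8 bases in 2 of 3 members. The cause of these shifts was not tested. No paired analysis was possible because the groups compared share fewer than 2 replicate numbers. With 2 libraries a group, and Foxo1, Foxo6 and Foxj3 at no more than 202 counts in any RIP library, small differences were not detectable at this depth. In simulated counts with 1 spread set for all genes, 17.5% of 2-fold changes were called for miR124sp against miR292sp in the RIP. For miR124sp against GFP in the mRNA that share was 42.5%. Of 4-fold changes 99% and 99.5% were called. The simulated spread was a set value and was not estimated from these libraries. These shares therefore do not measure what the comparisons could detect for a given gene.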
